A study of Homo sapiens with 15 samples.

Results

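Total RNA of cells that expressed UPF1 isoform 2 (UPF1-2) was compared with total RNA of cells that expressed GFP, gene by gene. The libraries were chosen by their labels alone, 3 of UPF1-2 and 3 of GFP, which makes 6 of the 15 libraries of the series. Of 12261 genes in the deposited table, 9325 reached 1 TPM (a length-corrected relative abundance) in at least 3 of the 9 total RNA libraries and were tested. All groups were HEK-293 Trex cells, a human cell line of embryonic kidney origin in which doxycycline switches on a transgene, and all received 200 ng/mL doxycycline hyclate. The UPF1-2 group carried CLIP-tagged UPF1 isoform 2, the UPF1-1 group CLIP-tagged UPF1 isoform 1, and the control group GFP. Ribosomal RNA was depleted before the libraries were made. Every construct sat in its own line, so a property of a line and an effect of the protein it expressed cannot be told apart. The labels do not say whether a line was 1 clone or a pool, nor whether replicates were separate cultures, and the p-values measure only the spread between these samples.

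UPF1 is an ATP-dependent RNA helicase that binds RNA broadly and is required for nonsense-mediated decay (NMD), the pathway that degrades transcripts on which translation stops far from the normal context. Its human isoforms arise by alternative splicing and differ in the length of a regulatory loop in the helicase core, which affects how ATP hydrolysis and RNA binding are coupled. Besides aberrant mRNAs, NMD limits many normal transcripts, among them RNAs that host snoRNAs, mRNAs of the stress response and mRNAs of NMD factors themselves.

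UPF1 (ENSG00000005007), the gene expressed from the construct, was looked at first. Its level was 68.9, 72.7 and 171 TPM in the UPF1-2 libraries, against 3.24, 3.80 and 8.57 TPM in the GFP libraries. Every UPF1-2 library lay above every GFP library. The rise was 4.15 ± 0.07 (SE) on the log2 scale, with a limma adjusted p of 1.1e-08. In the UPF1-1 line the same gene rose by 4.46, and the UPF1-2 level was 0.31 lower on the log2 scale than the UPF1-1 level, with a limma adjusted p of 0.036. The table does not separate the transgene from the endogenous transcript.

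Replicate 3 stood apart in every group. The listed genes held 12.2% to 19.0% of the TPM scale in the UPF1-2 libraries and 13.3% to 17.1% in the GFP libraries, highest in replicate 3 of each. All tests compared log2(TPM + 0.5) after library medians were set equal, with the replicate number as a pair, and a fold change on this scale understates the change of low genes. Of 12 genes typical of HEK-293 cells 10 were listed, with summed levels of 168 to 302 TPM in UPF1-2 and 179 to 267 TPM in GFP libraries. None of 7 fibroblast and none of 7 endothelial and hepatocyte markers was listed. Of 7 blood cell markers HBA1 was listed, at 2.38, 2.56 and 7.22 TPM in UPF1-2 and 2.55, 2.21 and 5.96 TPM in GFP libraries.

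Few genes passed the adjusted threshold with UPF1-2, and most of their changes were small. At an unadjusted limma p under 0.05 there were 1128 of the 9325 genes (12.1%). At a limma adjusted p under 0.05, 35 genes passed, which is 0.375% of the genes tested. Of these 26 were higher in UPF1-2 (0.279%) and 9 were lower (0.0965%). The higher genes were led by UPF1, by a retrocopy of the translation factor gene MCTS1 on chromosome 20, and by HM13, TRIB3 and HIST1H3F, while HIST1H2AL, HIST1H2BI, CD99 and PRAME were the most reduced. Only 4 of the 35 reached 2-fold, and 23 of the 26 higher genes were below 0.7 on the log2 scale. All 35 had the same direction in all 3 replicate numbers, where 14.7% of all genes were above 0 and 18.4% below 0 in all 3. After scaling, the UPF1-2 and GFP libraries did not overlap for 26 of the 35, and this held for 5.33% of all genes. The 35 were chosen on these same scaled values and pairs. Both counts are favoured by that choice and are not separate support. The median of the 35 genes' mean levels was 3.78 TPM.

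The number of calls depended on how the libraries were paired and scaled. Without the replicate number 3 genes passed, UPF1, the MCTS1 retrocopy and HIST1H2AL. With the number but without equal medians 6 passed, adding CD99, HIST1H2BI and HIST1H3F, and with neither UPF1 alone passed. Other settings gave as many calls or more. With the 6 UPF1-2 and GFP libraries alone 51 passed, and with upper quartiles set equal 43. A filter at a mean of 5 TPM, which drops low genes, gave 34 calls, 17 of them among the 35. Leaving out replicate 1, 2 or 3 gave 7, 3 and 11 calls. UPF1, the MCTS1 retrocopy and HIST1H2AL passed in all 3 of these fits. CD99, HIST1H2BI, HIST1H3F and TRIB3 passed in 2 of them and not without replicate 2, BAG1 and HM13 passed only without replicate 3, and the other 26 passed in none. The direction of the 35 genes was the same in every alternative fit that gave a value.

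**Figure D1:**
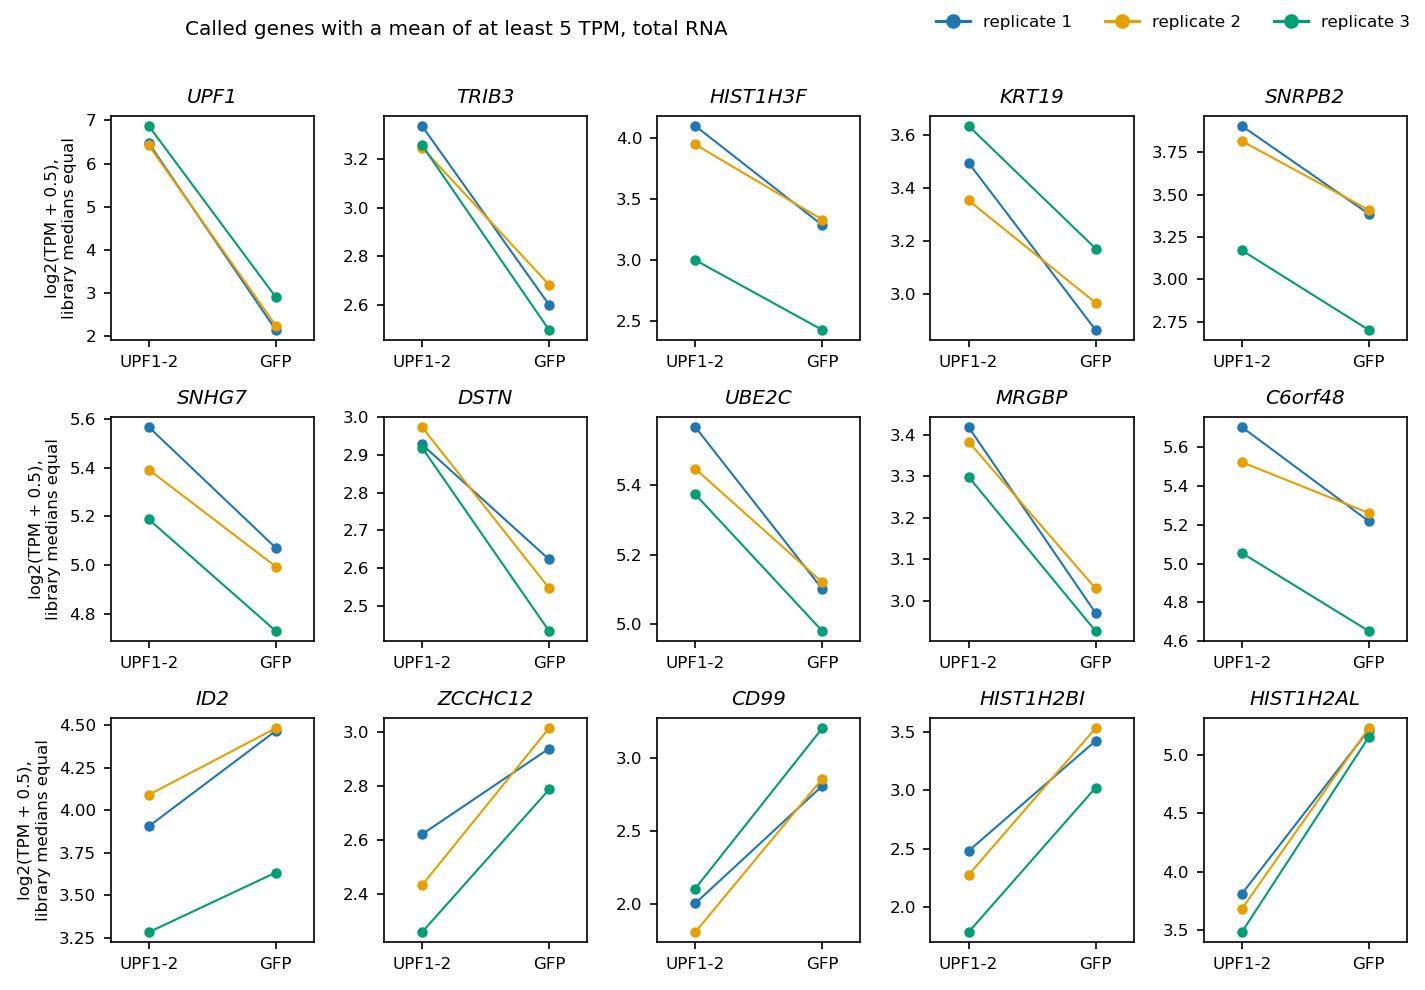
Levels as log2(TPM + 0.5) with library medians equal, in UPF1-2 (left) and GFP (right) libraries, for the 15 genes past the threshold that averaged 5 TPM or more, each panel with its own axis and a line joining libraries of the same replicate number. The 3 lines of each gene slope the same way, which the choice of the genes by paired values favours. The difference is largest for UPF1, at 4.15.

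The rises gathered on 1 chromosome. Of the 26 higher genes 17 lie on chromosome 20, from TRIB3 near one end to DNAJC5 near the other. That is 7.17% of the 237 chromosome 20 genes tested, against 0.0990% of the 9088 other genes. The shift was not limited to the genes that passed. The median log2 difference UPF1-2 minus GFP was 0.19 on chromosome 20 (interquartile range 0.12 to 0.26), and -0.02 over all other genes. On chromosome 20, 223 of 237 genes were above 0 (94.1%), compared with 42.6% elsewhere. By replicate number the chromosome 20 median was 0.22, 0.19 and 0.15. It was 0.20 in the 95 genes that averaged 5 TPM or more and 0.18 in the 142 genes below that level. At an unadjusted limma p under 0.05 there were 142 of the 237 genes, compared with 12.1% of all genes. Chromosomes were assigned through RefSeq, which matched 9106 of the 9325 genes and 34 of the 35 that passed.

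**Figure D2:**
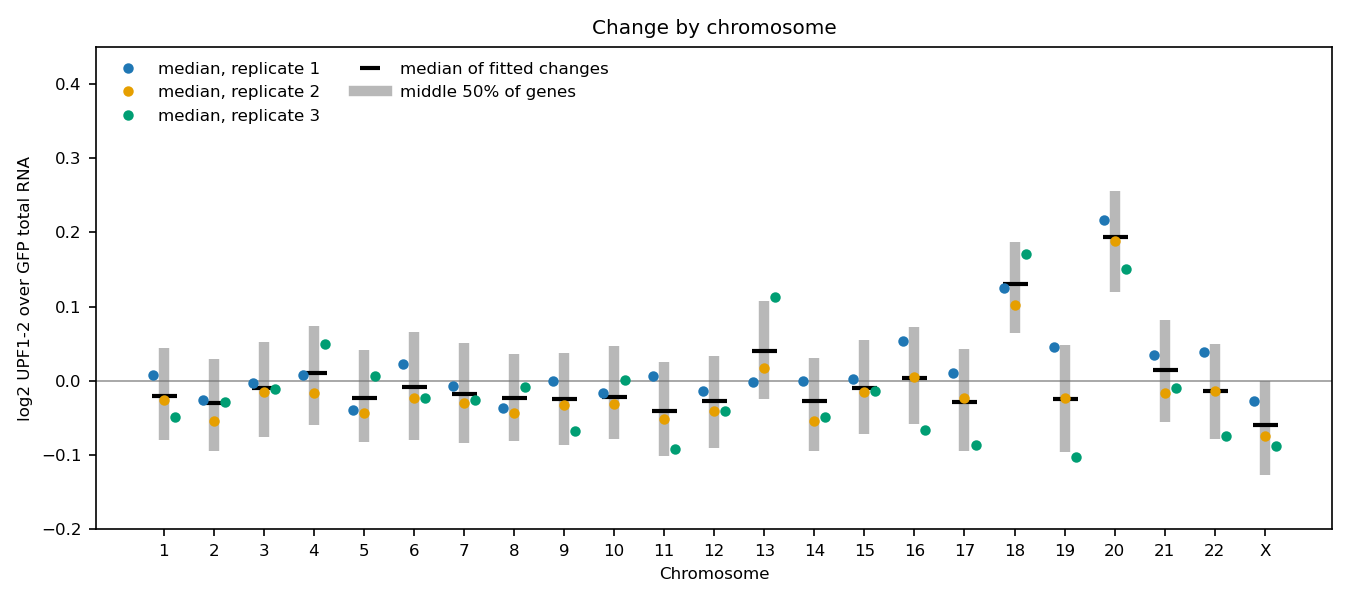
Median log2 difference UPF1-2 minus GFP of the tested genes of each chromosome, with the interquartile range as the grey bar, the median as the black tick and points for the medians of the 3 replicate numbers. Chromosome 20, at 0.19, and chromosome 18, at 0.13, stand above the others, and chromosome X is at -0.06.

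RP3-324O17.4 (ENSG00000101898, now named MCTS2) is that retrocopy; RefSeq places it inside HM13. Its levels were 4.59, 5.19 and 7.99 TPM in UPF1-2 libraries, against 1.83, 1.91 and 2.63 TPM in GFP libraries, without overlap. The rise of 1.24 ± 0.06 (SE; limma adjusted p 3.1e-05) was the largest after that of UPF1. Since it resembles MCTS1, how reads were divided between the copies is uncertain. HM13, which encodes signal peptide peptidase, had 2.26, 2.39 and 6.22 TPM with UPF1-2, against 1.02, 1.21 and 3.71 TPM with GFP. The high replicate 3 libraries made its groups overlap, and its pair differences were 0.97, 0.83 and 0.40. It rose by 0.74 ± 0.11 (SE; limma adjusted p 0.032). Without replicate 3 HM13 stood at 0.93 and passed again, and without replicate 1 or 2 it did not pass.

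TRIB3, a pseudokinase induced by cellular stress, had 7.40, 7.61 and 13.5 TPM with UPF1-2 and 4.62, 5.30 and 6.32 TPM with GFP, and the groups did not overlap. It rose by 0.69 ± 0.06 (SE; limma adjusted p 0.0032). CEBPB, a transcription factor of stress and differentiation, had 3.24, 3.46 and 6.96 TPM with UPF1-2, against 2.41, 2.56 and 4.03 TPM with GFP. Within each number CEBPB was higher with UPF1-2, by 0.47, 0.45 and 0.44, and it rose by 0.46 ± 0.06 (SE; limma adjusted p 0.024). UBE2C, the ubiquitin-conjugating enzyme that works with the anaphase-promoting complex, had 36.5, 36.8 and 60.2 TPM with UPF1-2 and 28.5, 30.9 and 37.7 TPM with GFP. It was the most abundant gene of the chromosome to pass, and it rose by 0.39 ± 0.06 (SE; limma adjusted p 0.026).

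SNRPB2, a protein of the U2 snRNP, had 11.2, 11.5 and 12.7 TPM with UPF1-2, against 8.32, 9.10 and 7.36 TPM with GFP. In TPM all UPF1-2 libraries were above all GFP libraries, but after scaling the groups overlapped, and within the pairs it rose by 0.47 ± 0.06 (SE; limma adjusted p 0.015). MRGBP, a subunit of the NuA4 histone acetyltransferase complex, had 7.86, 8.41 and 13.9 TPM with UPF1-2 and 6.12, 6.88 and 8.70 TPM with GFP, and rose by 0.39. DSTN, which depolymerises actin, had 5.45, 6.21 and 10.6 TPM with UPF1-2 and 4.70, 4.78 and 6.03 TPM with GFP, and rose by 0.41. For MRGBP and DSTN the groups overlapped in TPM and separated after scaling. The other chromosome 20 genes that passed are low in these cells. They were DNAJC5 (0.62), the cysteine string protein of secretory vesicles, SMOX (0.59), which oxidises spermine, and MGME1 (0.52), an exonuclease of mitochondrial DNA. MKKS (0.52) is a chaperonin-like protein mutated in Bardet-Biedl syndrome, and TRMT6 (0.48) is a subunit of a tRNA methyltransferase. CRLS1 (0.44) makes cardiolipin, NDUFAF5 (0.44) and PET117 (0.42) help to assemble respiratory complexes, and DDRGK1 (0.42) acts in the ufmylation pathway. None of these 9 reached a mean of 5 TPM in these libraries.

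Other chromosome 20 genes with textbook roles were above 0 without passing the threshold. GNAS, the stimulatory G protein subunit, had 38.7, 45.1 and 79.5 TPM with UPF1-2, against 33.1, 36.5 and 48.6 TPM with GFP, and a log2 difference of 0.38 (limma adjusted p 0.056). PCNA, the replication clamp, was at 0.30, the transcription factor E2F1 at 0.27, the nuclear exonuclease XRN2 at 0.24 and the mitotic kinase AURKA at 0.40, with limma adjusted p of 0.16, 0.15, 0.16 and 0.25. TPX2, a spindle protein, was at 0.14 and the signalling ligand BMP7 at 0.17, below the chromosome's median.

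The shift ran along the whole chromosome. When the 237 genes were put in their chromosomal order and split into 10 bins of 23 or 24 genes, the medians were 0.24, 0.30, 0.17, 0.17, 0.16, 0.15, 0.14, 0.21, 0.20 and 0.18. The lowest bin was thus still above the median of all genes. The calls were less even. The second bin held 7 of the 17, SMOX, TRMT6, CRLS1, MKKS, NDUFAF5, SNRPB2 and DSTN, and 3 bins held none.

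**Figure D3:**
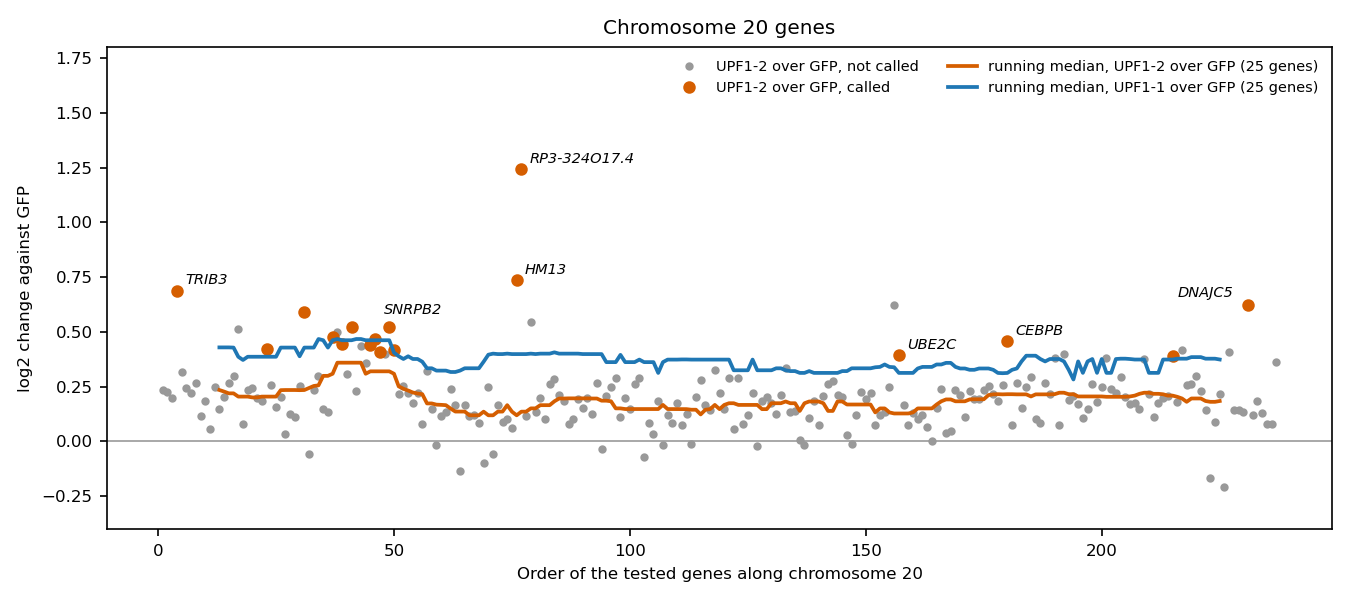
Log2 difference UPF1-2 minus GFP of the 237 chromosome 20 genes in their order along the chromosome, with the 17 genes past the threshold marked, and running medians over 25 genes for UPF1-2 and for UPF1-1, each against GFP. Of the points 223 lie above 0, and the UPF1-2 median stays above 0 along the chromosome and below that of UPF1-1.

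With UPF1-1 the chromosome 20 genes lay farther from GFP. The median log2 difference from GFP was 0.19 with UPF1-2 and 0.37 with UPF1-1, and 223 and 229 of the 237 genes were above 0. These comparisons share the GFP libraries. Taken directly, UPF1-2 minus UPF1-1 had a chromosome 20 median of -0.18. This comparison uses no GFP library but shares the UPF1-2 libraries. Set against the mean of all 9 libraries gene by gene, the chromosome's median level was -0.01, -0.02 and 0.03 in the UPF1-2 libraries, 0.14, 0.13 and 0.28 in the UPF1-1 libraries and -0.23, -0.20 and -0.12 in the GFP libraries. The 3 lines kept this order in each replicate number.

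Chromosomes 18 and X also departed from the rest, less strongly. On chromosome 18 the median difference UPF1-2 minus GFP was 0.13 over 140 genes, 131 of them above 0 (93.6%), and 0.12, 0.10 and 0.17 by number. No chromosome 18 gene passed, and TYMS, the thymidylate synthase gene, was at 0.24 (limma adjusted p 0.16). Chromosome 13 had a median of 0.04 with 112 of 169 genes above 0 (66.3%), and -0.001, 0.02 and 0.11 by number. Its UPF1-2 minus UPF1-1 median was 0.14. On chromosome X the median was -0.06 over 303 genes, of which 75 were above 0 (24.8%), and CD99 and ZCCHC12 fell. Chromosome 21 was near the other genes with UPF1-2, at 0.01 with 48 of 89 genes above 0. With UPF1-1 its median against GFP was -0.23 with 11 of 89 above 0, and UPF1-2 minus UPF1-1 was 0.25. The data hold RNA levels only, and whether a chromosome's shift belongs to the line or to the expressed protein cannot be told apart.

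**Figure D4:**
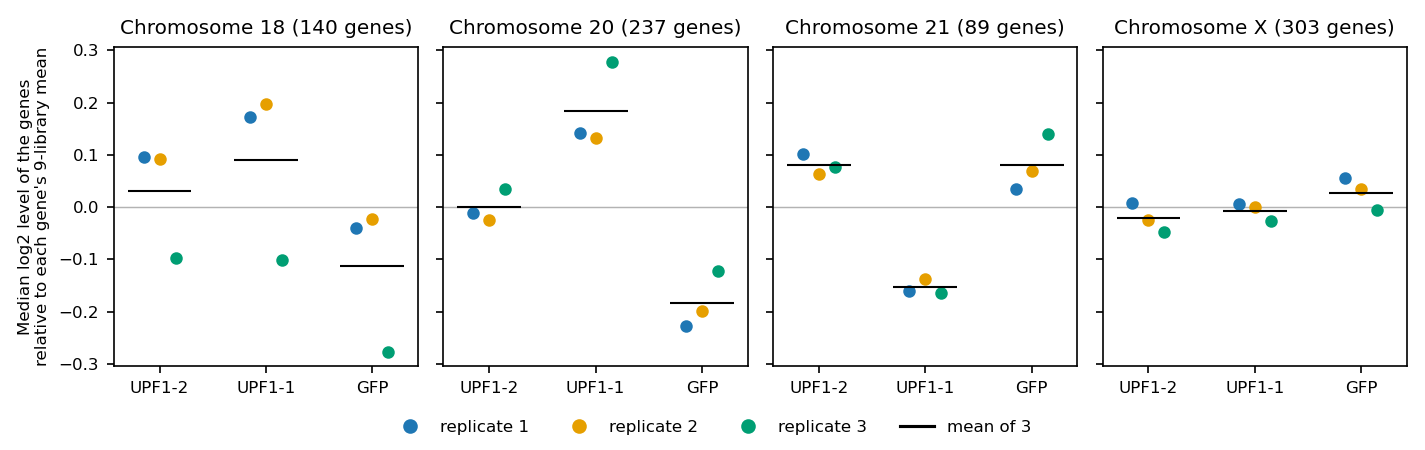
Median level of the genes of chromosomes 18, 20, 21 and X in each of the 9 total RNA libraries, on the log2 scale relative to each gene's mean over these libraries, with 1 point per library and the mean of 3 as a line. On chromosome 20 the UPF1-2 libraries lie between -0.02 and 0.03, the UPF1-1 libraries between 0.13 and 0.28 and the GFP libraries between -0.23 and -0.12.

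Measured against their own chromosome, most of the chromosome 20 calls no longer passed. When the median of every chromosome was set equal in each library, an alternative chosen after seeing the data, 19 genes passed, 12 higher and 7 lower, and 16 of them were among the 35. On chromosome 20 the MCTS1 retrocopy RP3-324O17.4 (0.98, limma adjusted p 0.0011) and TRIB3 (0.43, limma adjusted p 0.042) remained. CEBPB stood at 0.20, UBE2C at 0.13 and SNRPB2 at 0.21 in that fit. Off chromosome 20, DDIT3 (0.47, limma adjusted p 0.049), FAM211A-AS1 (0.37, limma adjusted p 0.042) and HBQ1 (-0.43, limma adjusted p 0.045) passed there and were not among the 35.

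Genes of the integrated stress response, in which ATF4 and its targets are induced when eIF2 is phosphorylated, were not shifted as a group. Of 34 tested, 2 rose and none fell, where 0.279% of all genes were higher and 0.0965% lower, and the median was -0.02, as over all genes, with 16 of 34 above 0; without equal medians the list's median lay above 0. Both that rose, TRIB3 and CEBPB, lie on chromosome 20. DDIT3, the transcription factor CHOP on chromosome 12, had 10.4, 10.1 and 13.6 TPM with UPF1-2, against 7.83, 8.95 and 6.79 TPM with GFP. Its groups did not overlap in TPM but did after scaling, and the log2 difference of 0.47 had a limma adjusted p of 0.056. ATF4 was at 0.27 (limma adjusted p 0.077), PPP1R15A, which directs dephosphorylation of eIF2, at 0.36 (0.10), and ATF3 at 0.15 (0.36). Further members lay below 0, such as the asparagine synthetase gene ASNS at -0.16, the mTOR inhibitor gene DDIT4 at -0.22 and NUPR1 at -0.42 (limma adjusted p 0.27, 0.19 and 0.17). With UPF1-1, TRIB3 was at 1.55, CEBPB at 1.16, DDIT3 at 1.15 and PPP1R15A at 1.28 against the same GFP libraries. UPF1-2 minus UPF1-1 was -0.86 for TRIB3, -0.70 for CEBPB and -0.67 for DDIT3 (limma adjusted p 0.00049, 0.00079 and 0.0037).

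Among genes of protein folding in the endoplasmic reticulum and its unfolded protein response, 21 of 25 were above 0 and the median was 0.10. HM13 alone passed, where 0.279% of all genes tested were called higher. HERPUD1, which serves the degradation of misfolded proteins, had 4.66, 5.05 and 10.2 TPM with UPF1-2 and 3.84, 4.19 and 6.62 TPM with GFP. Its log2 difference was 0.33 (limma adjusted p 0.056). The cochaperone gene DNAJB11 was at 0.34, the transcription factor gene XBP1 at 0.23, the chaperone gene HSPA5 at 0.21 and MANF at 0.19, with limma adjusted p of 0.13, 0.22, 0.36 and 0.40. Against the same GFP libraries the UPF1-1 values were 1.21 for HERPUD1, 1.19 for XBP1, 0.49 for HSPA5 and 0.89 for MANF. Without the chromosome 20 gene the median of the list with UPF1-2 was 0.10 over 24 genes.

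SnoRNA host genes had the highest median of the lists examined, 0.20 over 22 genes, with 16 above 0. The median was 0.16, 0.20 and 0.15 by replicate number, and 10 of the 22 were above 0 in all 3 numbers and none below. NOP56, SNHG17 and ZFAS1, all with positive values, lie on chromosome 20, and over the other 19 the median was 0.15. Over all 22 it was 0.10 when chromosome medians were set equal. SNHG7 had 36.5, 35.4 and 52.9 TPM with UPF1-2, against 27.9, 28.3 and 31.6 TPM with GFP, and rose by 0.45 ± 0.06 (SE; limma adjusted p 0.026). C6orf48, now SNHG32, had 40.3, 38.8 and 48.2 TPM with UPF1-2, against 30.9, 34.2 and 29.9 TPM with GFP, and rose by 0.38 ± 0.06 (SE; limma adjusted p 0.032). For both RNAs each UPF1-2 library exceeded each GFP library in TPM; after scaling this held for SNHG7, and the groups of C6orf48 overlapped.

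The next host RNAs did not pass. FAM211A-AS1, now SNHG29, had 152, 147 and 197 TPM with UPF1-2 and 124, 128 and 131 TPM with GFP, a log2 difference of 0.33 (limma adjusted p 0.051). GAS5 had 76.5, 72.0 and 92.4 TPM with UPF1-2 and 62.6, 66.1 and 60.2 TPM with GFP, a difference of 0.31 (limma adjusted p 0.070). EPB41L4A-AS1 was at 0.33, SNHG1 at 0.29, SNHG15 at 0.28, SNHG12 at 0.25 and ZFAS1 at 0.19 (limma adjusted p 0.068, 0.20, 0.10, 0.36 and 0.20), and at the other end DANCR at -0.06 and SNHG10 at -0.06. The UPF1-1 medians against GFP were 0.06 for this list, 0.26 for the endoplasmic reticulum genes and 0.15 for the stress response genes. SNHG7 was at 0.38 and FAM211A-AS1 at 0.08 with UPF1-1, and UPF1-2 minus UPF1-1 was 0.07 for SNHG7 and 0.25 for FAM211A-AS1, with limma adjusted p of 0.49 and 0.029.

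Many snoRNA host RNAs belong to the 5′ terminal oligopyrimidine class, which starts with a C followed by a run of pyrimidines and is regulated with ribosomal protein mRNAs. The first 30 bases from the RefSeq start (GRCh38.p14, whereas the table was made on hg19) are therefore shown for the 5 hosts with the largest differences, with the unbroken run of C and T from a C at the start in capitals:
SNHG7: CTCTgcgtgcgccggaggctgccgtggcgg
C6orf48: CTTTTTgcgaagtgggctcgtgggttggca
FAM211A-AS1: ggattgggatattccgactccttaagggcc
EPB41L4A-AS1: tgtcgggtcccaaaatacgtggtctaaagt
GAS5: agatgtgtttattttggagcctacaccagc
They lie at chr9:136728155-136728184 on the minus strand, chr6:31834916-31834945 on the plus strand, chr17:16438987-16439016 on the plus strand, chr5:112160526-112160555 on the plus strand and chr1:173869016-173869045 on the minus strand. Both genes that passed open with such a run, of 4 bases in SNHG7 and 6 in C6orf48 with the C counted. The other 3 annotated starts hold none. These 5 of the 22 hosts were picked by their differences, and the starts of the others were not examined. Whether the run goes with the difference was thus not tested. Over all genes, 1914 of 35116 RefSeq gene starts (5.45%) opened with a C and a run of at least 4 C or T, the C counted. The start used in these cells was not measured.

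Of established NMD targets few passed. Among 44 tested, BAG1 and UPF1 rose and none fell, where 0.279% of all genes were higher and 0.0965% lower. UPF1 is the gene expressed from the construct, which leaves BAG1 as the only other call. The median was 0.04 and 24 were above 0. In all 3 replicate numbers 16 of the 44 were above 0 and 7 below, where 14.7% and 18.4% of all genes were. With UPF1-1 the median of the list against the same GFP libraries was 0.14. BAG1, a cochaperone of HSP70, had 3.10, 3.48 and 4.57 TPM with UPF1-2, against 2.05, 2.40 and 2.47 TPM with GFP, without overlap. It rose by 0.55 ± 0.06 (SE; limma adjusted p 0.013), and by 0.39 with UPF1-1. GADD45A, a growth arrest gene, was at 0.31, RASSF1 at 0.22 and UPP1 at 0.26 (limma adjusted p 0.37, 0.22 and 0.23), while the splicing factor genes SRSF7 and HNRNPL were at -0.14 and -0.21. Among 24 NMD and decay factors no gene passed except the expressed UPF1. The median was -0.01, above 0 without equal medians or with equal upper quartiles, and 12 were above 0, UPF1 included. UPF2 was at -0.10, UPF3B at 0.04, SMG5 at -0.13, SMG6 at -0.16, SMG9 at -0.06 and the decapping coactivator PNRC2 at 0.25, with limma adjusted p of 0.65, 0.88, 0.44, 0.64, 0.74 and 0.29. Against the same GFP libraries SMG9 was at 0.92 and UPF3B at -0.51 with UPF1-1.

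Replication-dependent histone genes encode the histones made in S phase, whose mRNAs end in a stem-loop in place of a poly(A) tail. Of 52 tested 1 rose and 2 fell, where 0.279% of all genes were higher and 0.0965% lower. The list's median was -0.09. HIST1H2AL had 10.4, 10.4 and 15.8 TPM with UPF1-2, against 30.9, 33.5 and 42.6 TPM with GFP, and every UPF1-2 library was below every GFP library. It fell by 1.55 ± 0.08 (SE; limma adjusted p 3.1e-05), the largest fall of all genes. HIST1H2BI had 3.87, 3.64 and 4.56 TPM with UPF1-2, against 8.56, 9.96 and 9.33 TPM with GFP, and fell by 1.14 ± 0.10 (SE; limma adjusted p 0.0029). HIST1H3F had 12.9, 12.7 and 11.2 TPM with UPF1-2, against 7.71, 8.57 and 5.98 TPM with GFP, and rose by 0.67 ± 0.06 (SE; limma adjusted p 0.0029). In TPM the groups did not overlap for any of the 3, and after scaling those of HIST1H3F did. The other 49 lay between -0.49 for HIST1H2BB and 0.15 for HIST1H2BF.

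UPF1-2 and UPF1-1 differed for each of these histone genes. UPF1-2 minus UPF1-1 was -0.36 for HIST1H2AL, 0.99 for HIST1H2BI and -0.60 for HIST1H3F, with limma adjusted p of 0.025, 0.0027 and 0.0024. The list's median with UPF1-2 was 0.06, -0.10 and -0.23 by replicate number, and -0.0005 without replicate 3. Histone genes have near-identical copies, so the division of reads among them is uncertain, and a pair such as HIST2H3A and HIST2H3C cannot be told apart.

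The other genes that fell have little in common by function. CD99, a membrane glycoprotein of cell adhesion on chromosome X, had 2.64, 2.49 and 5.81 TPM with UPF1-2, against 5.42, 6.06 and 10.7 TPM with GFP. It fell by 0.99 ± 0.09 (SE; limma adjusted p 0.0029) and its groups overlapped in TPM but not after scaling. CD99 was the only one of the 35 not called between UPF1-1 and GFP, at -0.19 (limma adjusted p 0.18), and UPF1-2 minus UPF1-1 was -0.80 (limma adjusted p 0.0031). PRAME, a tumour antigen, had 0.473, 0.693 and 1.19 TPM with UPF1-2, against 1.42, 1.47 and 2.11 TPM with GFP, and fell by 0.80 ± 0.10 (SE; limma adjusted p 0.015). HSPB1, a small heat shock protein, had 0.907, 0.831 and 2.82 TPM with UPF1-2, against 1.63, 1.75 and 3.96 TPM with GFP, and fell by 0.62 ± 0.07 (SE; limma adjusted p 0.013). PRAME and HSPB1 are low in these cells, where the pseudocount of 0.5 TPM shrinks a log2 difference.

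ID2, an inhibitor of basic helix-loop-helix transcription factors, had 11.2, 14.0 and 13.8 TPM with UPF1-2, against 18.1, 19.7 and 14.5 TPM with GFP. Its groups did not overlap in TPM but did after scaling, and it fell by 0.43 ± 0.06 (SE; limma adjusted p 0.026). With UPF1-1 ID2 fell by 0.85, and UPF1-2 minus UPF1-1 was 0.41 (limma adjusted p 0.0083). Of the same family, ID4 was at -0.23, ID3 at -0.10 and ID1, on chromosome 20, at 0.12 with UPF1-2 (limma adjusted p 0.26, 0.77 and 0.70). ZCCHC12, a transcriptional coactivator on chromosome X, fell by 0.48, and RAB32, a small GTPase of organelle traffic, fell by 0.51. ARRDC4, an arrestin-like protein that follows glucose supply, fell by 0.52, and by 0.89 with UPF1-1.

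Off chromosome 20, 8 genes other than UPF1 rose. BAG1, SNHG7, C6orf48 and HIST1H3F were among them. KRT19, an epithelial keratin, had 8.31, 8.23 and 17.7 TPM with UPF1-2, against 5.65, 6.57 and 10.4 TPM with GFP. It rose by 0.49 ± 0.07 (SE; limma adjusted p 0.026) and was 0.26 above its UPF1-1 level (limma adjusted p 0.048). CYB561A3, a reductase of lysosomal membranes, had 1.70, 3.19 and 2.43 TPM with UPF1-2 and 1.38, 2.06 and 1.22 TPM with GFP, and rose by 0.48. The zinc finger gene ZNF550 (0.46) and WDR83 (0.56), a WD-repeat protein, also rose, and both average close to 1 TPM.

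Among the abundant housekeeping mRNAs most log2 differences were just below 0, and no gene passed, as 0.375% of all genes did. Of 82 cytosolic ribosomal protein genes 5 were above 0 and the median was -0.11, with 0.01, -0.15 and -0.23 by replicate number. Of 81 oxidative phosphorylation genes 7 were above 0 and the median was -0.11, with -0.001, -0.15 and -0.17 by number. The ribosomal protein genes RPS4X and RPL41 were at -0.29 and -0.22 (limma adjusted p 0.14 and 0.20), and NDUFA10 and COX5B of respiratory complexes were at -0.27 and -0.23 (limma adjusted p 0.12 and 0.15). Of 76 mitochondrial ribosomal protein genes 11 were above 0, with a median of -0.06. For these 3 lists the values of replicate 1 were nearer to 0 than those of replicates 2 and 3. Among heat shock chaperones HSPB1 fell and the median of 20 genes was -0.05. Splicing factor genes of the Sm and snRNP list, where SNRPB2 rose, had a median of -0.05 over 39 genes, with the helicase gene SNRNP200 at -0.30 and SNRPA1 of the U2 snRNP at -0.25 (limma adjusted p 0.15 and 0.17), and SR and hnRNP genes had -0.03 over 36 with none called.

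Immediate early genes, which respond to growth signals within minutes, had a median of 0.06 over 20 genes and none passed, with JUNB at 0.26 and IER3 at 0.29 (limma adjusted p 0.14 and 0.16). Of 43 decapping, deadenylation and exonuclease genes, 12 microRNA pathway genes, 7 abundant nuclear RNAs, 41 DNA replication genes, 21 cholesterol synthesis genes, 19 p53 targets, 14 oxidative stress genes and 9 interferon response genes none passed. Their medians lay between -0.07 and 0.02. UBE2C was the only call among 38 mitosis genes (median -0.07), KRT19 and DSTN were those among 38 actin and intermediate filament genes (median -0.05), and ID2 was that among 11 ID and BMP response genes (median -0.03). Over all genes tested 0.375% passed.

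**Figure D5:**
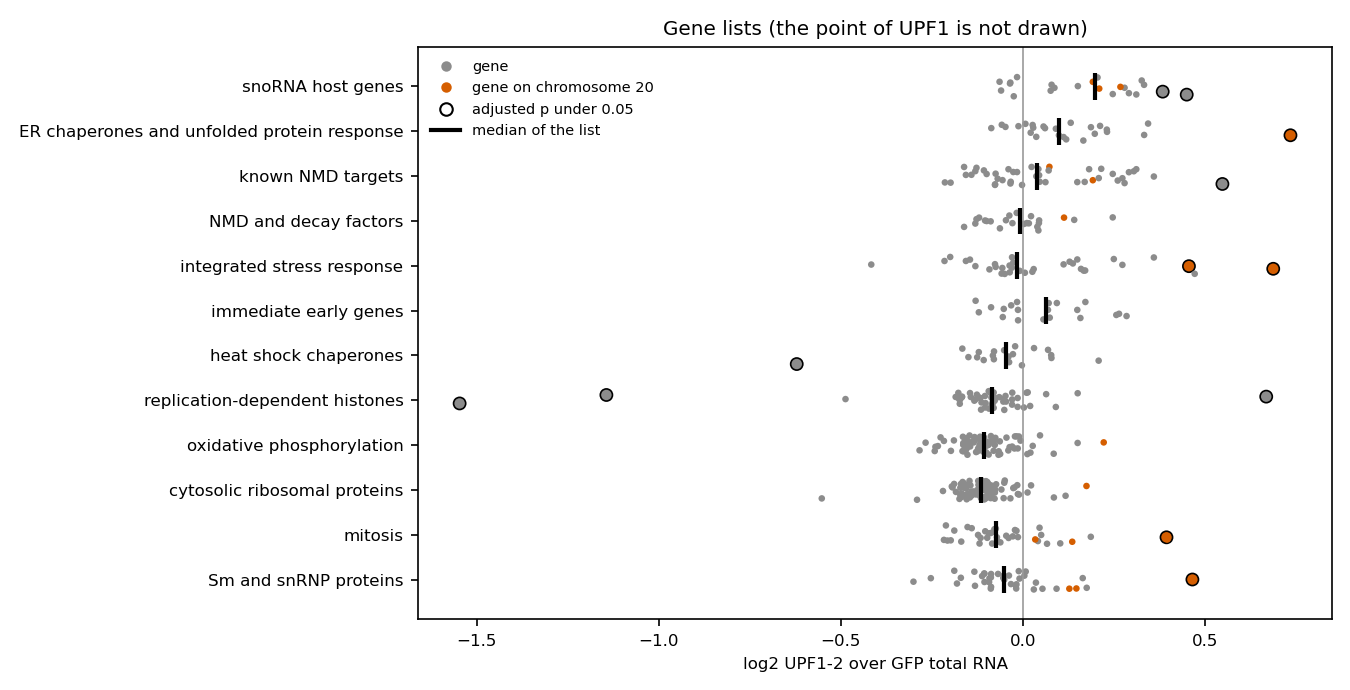
Log2 difference UPF1-2 minus GFP of each tested gene in each gene list, with the list's median as a bar, genes on chromosome 20 marked, and the point of UPF1 not drawn. The snoRNA host list, with a median of 0.20, lies farthest above 0, and the cytosolic ribosomal protein and oxidative phosphorylation lists, at -0.11, lie farthest below.

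In the main fit UPF1-2 lay closer to GFP than UPF1-1 did in the number of calls. Between UPF1-1 and GFP 1507 genes passed (16.2%), and between UPF1-2 and UPF1-1 887 (9.51%), or 0 without the replicate number and 89 without equal medians. The 1507 was counted in the main fit only, and its dependence on the replicate number and the scaling was not examined. Of the 35 genes 34 were also called between UPF1-1 and GFP in the same direction, and the GFP libraries are shared. For 27 of the 35 the absolute difference from GFP was smaller with UPF1-2 than with UPF1-1. The direct comparison of UPF1-2 with UPF1-1 called 17 of the 35. It holds no GFP library but shares the UPF1-2 libraries by which the 35 were chosen, so it is not separate support.

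Just outside the threshold, by order of p, stood FAM211A-AS1, DDIT3, CORO7 (-0.37), GNAS, HERPUD1, MAGED1 (-0.78), IFRD1 (0.60), HBQ1 (-0.42), ACP6 (0.37) and AC004057.1 (-0.37), with limma adjusted p of 0.051 to 0.066. IFRD1, a transcriptional coregulator whose mRNA carries an upstream reading frame, had 29.1, 31.7 and 35.05 TPM with UPF1-2, against 22.6, 23.7 and 15.7 TPM with GFP. These groups did not overlap in TPM but did after scaling, and the difference was largest in replicate 3. MAGED1 had 0.518, 1.21 and 4.57 TPM with UPF1-2 and 2.07, 2.42 and 5.10 TPM with GFP, so that replicate 3 of both groups lay above the other libraries.

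RNA that copurified with CLIP-tagged UPF1-2 was also sequenced, and its ratio to UPF1-2 total RNA describes the same genes by a separate set of libraries. This ratio has the UPF1-2 total RNA in its denominator, and no purification from GFP cells was analysed here, so it is given as a description. The listed genes held 44.75% to 69.63% of the TPM scale in the copurified libraries, against 12.2% to 19.0% in UPF1-2 total RNA. The log2 ratio of copurified to total RNA was centred on the median gene within each replicate number. A value below 0 means lower recovery than the median gene, not a lower TPM. UBE2C, which lay below 0, averaged 76.3 TPM in copurified and 44.5 TPM in total RNA. By this centring the median ratio was 0.00 over 11714 genes (interquartile range -0.64 to 0.57). It was -0.23 over the 25 higher genes other than UPF1, 10 of them above 0, and -0.41 over 8 of the lower genes, 3 of them above 0. HSPB1, the remaining lower gene, had no ratio, as it did not reach 1 TPM in 3 of the copurified and total UPF1-2 libraries. Over 289 genes of chromosome 20 the median was 0.01. High among the called genes with a ratio were UPF1 at 2.52, SNHG7 at 1.14 and TRIB3 at 1.00. Low were CYB561A3 at -2.57, HIST1H3F at -1.93, HIST1H2BI at -1.88, HIST1H2AL at -1.88 and UBE2C at -1.60. Of the 2 stress response genes that rose, TRIB3 was thus above and CEBPB, at -1.20, below the median gene in recovery.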

How the data were processed

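The deposited table gave TPM per gene and library, per the file headers, each gene with 1 Ensembl transcript; whether a value is of that transcript or of the gene, and whether counting used strand, is not given in the sources used here. The submitters' processing notes name cutadapt, kallisto, sleuth and the build hg19, without versions. No listed gene averaged under 0.25 TPM in any group of total RNA. Depth cannot be read from TPM, so no counting interval is given. The authors' fold and q columns and 9 other columns of per-sample values were not used.

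The fit held the 9 libraries of UPF1-2, UPF1-1 and GFP total RNA, which share 1 estimate of the spread. Genes that reached 1 TPM in 3 or more libraries were kept, log2(TPM + 0.5) was taken, library medians were set equal, and limma 3.58.1 (R 4.3.3) was fitted with a trend, the group and the replicate number. P-values were 2-sided, Benjamini-Hochberg adjusted over 9325 genes, threshold 0.05. The fit was run on simulated data with independent noise per gene, a built-in replicate effect and no chromosome-wide shift. Such data cannot check the pairing or the chromosome shifts. The equal medians and the use of numbers as pairs were set when the comparison was defined. Deviations from group means correlated within a number across genes, at r of 0.72, 0.78 and 0.91 for UPF1-2 with GFP. Numbers 1 and 2 crossed gave 0.69 and 0.75, so the values set replicate 3 apart and do not separate numbers 1 and 2. An exact test of 1 gene over 3 pairs cannot go below p = 0.25, so single genes rest on the fit's pooled spread.

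The rule for named genes took all genes past the threshold, the next 10 by p and up to 4 per list with the smallest p, not all of which are printed; other list members were named after their values were seen. The comparison, lists and pairing were chosen with earlier results of these data known. RefSeq (GRCh38.p14) gave chromosomes for 11684 of 12261 genes and their order, and the start sequences and coordinates of 5 snoRNA host genes, whose build differs from hg19. Chromosomes were examined after the data were seen. Alternatives were the fit without the number, without equal medians or without both, upper quartiles, pseudocounts of 0.1 and 1, no filter, a filter at a mean of 5 TPM, the 6 libraries alone, each replicate left out, and equal chromosome medians.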

Additional observations from a re-analysis of the deposited data

Results flagged for a closer look

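For 17 of the 35 genes that differed between UPF1-2 and GFP, the change against GFP also differed between UPF1-2 and UPF1-1, by the direct contrast in the same limma fit (adjusted p under 0.05). That contrast called 887 genes in all, 0 without the replicate number, 89 without equal medians and 17 without replicate 2, so none of these calls holds without the number. The contrast shares the UPF1-2 libraries with the comparison that chose the 35. The values that follow are UPF1-2 minus UPF1-1 on the log2 scale. On chromosome 20 the genes were RP3-324O17.4 (-0.38), TRIB3 (-0.86), CEBPB (-0.70), UBE2C (-0.44), MRGBP (-0.23), SMOX (-0.46), HM13 (-0.52) and PET117 (-0.29), all less raised with UPF1-2. The chromosome's median in this contrast was -0.18. UPF1 (-0.31), HIST1H3F (-0.60) and C6orf48 (-0.32) were likewise less raised with UPF1-2, and KRT19 (0.26) was more raised. Among genes that fell, CD99 (-0.80) and HIST1H2AL (-0.36) were reduced more with UPF1-2, and HIST1H2BI (0.99), ID2 (0.41) and ARRDC4 (0.37) less. The largest adjusted p among the 17 was 0.048, for KRT19. Replicates numbered 3 per group, so no test for a library apart within a group was made.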

How the results depend on the processing

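Between UPF1-2 and GFP 35 genes passed. The 6 libraries alone gave 51 calls and equal upper quartiles 43. The filter at a mean of 5 TPM gave 34, 17 of them among the 35. The fit without the replicate number called 3 (128 at an unadjusted p under 0.05), the block without equal medians 6, neither 1, and equal chromosome medians, added after seeing the data, 19; leaving out a replicate gave 3 to 11. Between UPF1-2 and UPF1-1, where 887 passed, no block gave 0 (477 at an unadjusted limma p under 0.05), the block without equal medians 89, neither 0 (89 unadjusted), a filter at a mean of 5 TPM 398, and leaving out a replicate 17 to 451. Upper quartiles turned the split of those calls to 591 higher and 347 lower, against 375 and 512. The cause was not tested, save that leave-out fits have fewer libraries. UPF1 passed in all 13 alternatives, at 4.02 to 4.27. No called gene reversed. With a replicate left out AGO3 ran between -0.423 and 0.052 and HLA-B between -0.179 and 0.012, above 0 without replicate 3. XRN2 (-0.020), MRPS26 (-0.016), BMP7 (-0.089) and TPX2 (-0.12) changed sign with equal chromosome medians; none of the 6 was called. The chromosome 20 median was 0.16 to 0.24 in the alternatives other than equal chromosome medians, which remove it. List medians moved most often, for 9 of 27 lists, with the filter at 5 TPM, for 5 without equal medians and for 3 to 5 with a replicate left out. TPM without counts limits any statement on genes near 1 TPM.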
